A study of Bos taurus with 12 samples.

Results

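The expression and m6A marks of 10 Wnt pathway genes were followed through the differentiation of bovine muscle cells. They are the ligand WNT5A, the frizzled receptors FZD1, FZD2 and FZD7, the co-receptor LRP6, the secreted antagonists SFRP1, SFRP2 and DKK3, the cytoplasmic and nuclear effector CTNNB1 (β-catenin), and the feedback gene AXIN2. They were chosen by gene symbol, with earlier results of these data known. All 10 were found among the 18436 genes of the expression table. Primary cells had been isolated from the longissimus dorsi muscle of Qinchuan cattle at birth, and the methods speak of a single newborn. In the GM group they were proliferating in DMEM/F12 growth medium with 20% fetal bovine serum at 80% confluence. In the DM group they had been kept for 4 days in differentiation medium with 2% horse serum, had formed myotubes and were given as 100% confluent. The labels name no genetic change or drug, and both media contained penicillin and streptomycin. Each group had 3 cultures, each with an input library (poly(A) RNA) and a library of fragments pulled down with an antibody to N6-methyladenosine (m6A), which gives 12 libraries. Where nothing says that cultures came from separate animals, p-values measure only the spread between these cultures. Medium, serum, time and confluence changed together and cannot be told apart.

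Wnt proteins are secreted ligands that bind frizzled receptors together with the co-receptors LRP5 and LRP6. Binding stops a cytoplasmic complex built on AXIN and APC from degrading β-catenin, which then enters the nucleus and acts with TCF/LEF factors on genes such as AXIN2. Secreted SFRP proteins carry a frizzled-like domain and bind Wnt ligands, while DKK proteins act on the co-receptors. In skeletal muscle the pathway is known for its part in embryonic myogenesis and in the regulation of satellite cells, and β-catenin also sits in cadherin junctions between cells.

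The input libraries were given as FPKM (mapped fragments scaled by library size and transcript length), a level per length, so levels may be compared between genes. Read counts per gene were not analysed here, so the counting error behind each value could not be computed. The libraries listed between 16016 and 16289 genes above 0. The label was checked against marker genes. Of 8 myotube markers, 5 were higher in DM, 1 was lower and 2, MYMK and DES, made no call. CKM, the muscle creatine kinase, lay at 9.23 to 11.8 FPKM in GM and 39.7 to 44.7 FPKM in DM. MYOG, the differentiation factor myogenin, was already at 190.4 to 207 FPKM in GM and reached 226 to 253 FPKM in DM. ACTA1, the skeletal muscle actin, was the lower one, with a mean of 110.2 FPKM in GM and 70.0 FPKM in DM. PAX7, the satellite cell factor, lay at 0.979 to 1.17 FPKM in GM and 0.042 to 0.102 FPKM in DM. Fibroblast markers were abundant in both groups. The summed level of the 12 fibroblast markers was 16111 to 16264 FPKM in GM and 17020 to 18133 FPKM in DM, of which COL1A1 made 6634 to 7584 FPKM in single libraries. Of the 11 fibroblast markers tested, 5 were higher and 1 was lower in DM. THY1 lay at 70.8 to 84.0 FPKM in GM and 72.2 to 80.8 FPKM in DM, PDGFRA at 34.7 to 38.8 FPKM and 43.7 to 44.8 FPKM, and CD34 did not exceed 0.0258 FPKM. The 5 endothelial markers in the table summed to at most 0.874 FPKM, the 2 Schwann cell markers to at most 0.0778 FPKM and the 3 immune markers to at most 2.01 FPKM. The 4 smooth muscle and pericyte markers in the table summed to 32.6 to 35.1 FPKM in GM and 39.8 to 41.8 FPKM in DM. Of the 3 of them tested, CSPG4 (a mean of 3.07 FPKM in GM and 5.82 FPKM in DM) and PDGFRB were higher and NOTCH3 was lower (2.13 FPKM and 0.854 FPKM). The 6 adipocyte markers in the table summed to 2.58 to 2.90 FPKM in GM and 2.53 to 3.26 FPKM in DM. Of the 2 tested, PPARG was lower and PLIN1 made no call. The 4 others were too low to be tested and went both ways. Mean FPKM in GM and DM was 0.127 and 0.796 for CIDEC and 0.106 and 0.578 for FABP4. It was 0.153 and 0.0109 for ADIPOQ and 0.275 and 0.134 for LPL. The part of these markers in the results was not tested. In such bulk RNA, a lower level from fewer cells of a type and one from less RNA per cell cannot be told apart.

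Expression of the Wnt genes in the 2 groups was compared with limma on log2(FPKM + 1). The test covered the 12302 genes whose mean reached 0.5 FPKM, and a gene passed at a Benjamini-Hochberg adjusted p under 0.05. Of the 10 genes, 9 were tested, since AXIN2 was below the minimum. Of these, 6 were higher in DM, namely SFRP1, FZD1, DKK3, FZD7, CTNNB1 and LRP6. Among all tested genes, 16.1% were higher. None of the 9 was lower, beside 26.7% of all tested genes. All of these but LRP6, hence 5 genes, also rose by over 1.5-fold, counted on the scale of log2(FPKM + 1), beside 4.89% of all tested genes. None was lower by more than 1.5-fold, beside 6.88% of all tested genes. In 8 of the 9 the libraries of the 2 groups did not overlap, which held for 54.1% of all tested genes. The median log2 fold change of all tested genes was -0.05, so the differences of the 10 genes relative to it are larger by that amount.

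**Figure D1:**
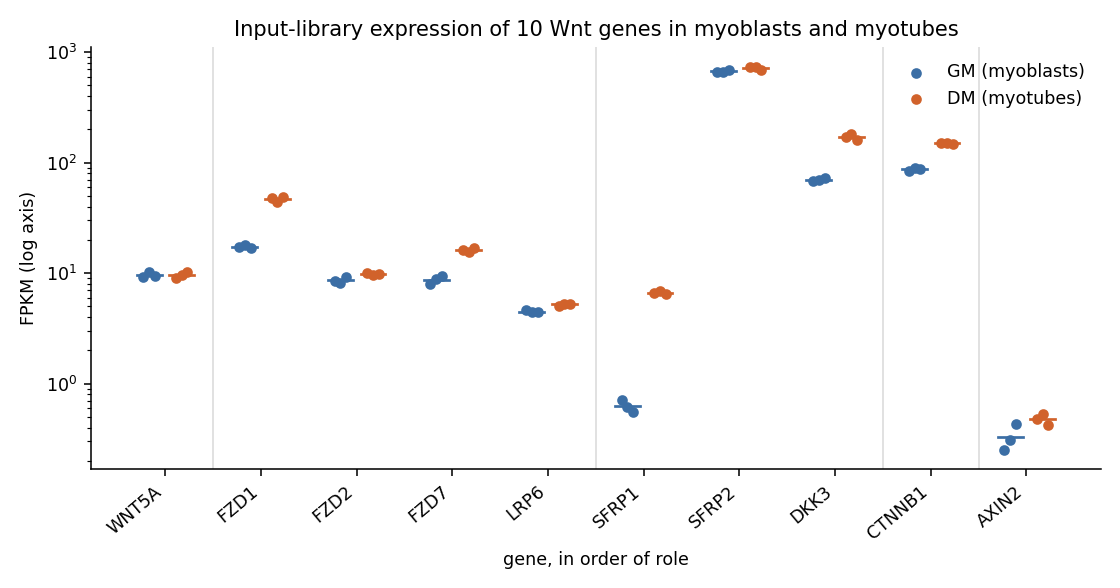
FPKM (log axis) of the 10 Wnt genes in each input library, grouped by role, with blue points for GM and orange points for DM and a bar at each group mean of 3 cultures. SFRP1, FZD1, DKK3, FZD7 and CTNNB1 lie higher in all DM cultures, and so, by less, do FZD2, LRP6 and SFRP2. WNT5A overlaps fully between the groups.

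WNT5A (ENSBTAG00000020221, chromosome 22, 45541328 to 45558117, plus strand, build ARS-UCD1.2) encodes a ligand that acts largely without β-catenin. Its level was 9.27, 10.2 and 9.45 FPKM in the GM cultures and 9.08, 9.68 and 10.3 FPKM in the DM cultures. The groups overlapped fully. The log2 fold change was 0.01 ± 0.07 (SE, n = 3 per group), with a 95% interval of -0.15 to 0.16 and a limma adjusted p of 0.946.

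Most of the other tested ligands were lower in DM. Of 19 WNT ligands listed, 13 were in the table and 7 were tested, of which 5 were lower (26.7% of all tested genes were) and 1, WNT2, was higher in DM (16.1% were). None changed by over 1.5-fold on the log2(FPKM + 1) scale, while the ratios of the mean FPKM in GM over DM were 1.62 for WNT9A and 1.51 for WNT10B. WNT2B was the most abundant ligand, with a mean of 25.2 FPKM in GM and 18.7 FPKM in DM. The summed level of the 13 ligands was 51.9 ± 1.53 FPKM in GM and 43.1 ± 0.531 FPKM in DM (SD, n = 3). All 3 DM sums were below the GM sums (exact two-sided permutation test, p = 0.1, the smallest that 3 against 3 allows). WNT5A made up 18.6% ± 0.417 of this sum in GM and 22.5% ± 1.199 in DM.

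FZD1 (ENSBTAG00000002107, chromosome 4, 8665915 to 8670064, plus strand) encodes a seven-span membrane receptor for Wnt ligands. It lay at 17.2, 17.9 and 17.0 FPKM in GM and at 47.5, 44.2 and 48.6 FPKM in DM. Every DM culture was above every GM culture, and the ratio of the means was 2.69. On the log2 scale the difference was 1.38 ± 0.05 (SE), with an adjusted p of 8.3e-07 in limma. Of the 12302 tested genes, 110 had a larger log2 fold change.

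FZD7 (ENSBTAG00000002283, chromosome 2, 90571270 to 90573476, plus strand) encodes a receptor known from the expansion of satellite stem cells under WNT7A. It lay at 7.92, 8.84 and 9.33 FPKM in GM and at 16.2, 15.4 and 16.7 FPKM in DM. The groups were apart, with a ratio of the means of 1.85 and a log2 fold change of 0.82 ± 0.07 (SE, limma adjusted p = 4.2e-05).

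FZD2 (ENSBTAG00000020590, chromosome 19, 44328506 to 44330388, plus strand) lay at 8.48, 8.11 and 9.30 FPKM in GM and at 10.04, 9.68 and 9.76 FPKM in DM. The libraries did not overlap, yet the gap between the nearest of them was smaller than the spread within GM, and the call was missed. The log2 fold change was 0.17 ± 0.06 (SE), with a 95% interval of 0.03 to 0.32 and a limma adjusted p of 0.0589. After rescaling every library to the same sum (TPM) it was 0.30 with an adjusted p of 0.0067, and with median-of-ratios size factors it was 0.23 with 0.0242, both past the threshold. Without GM replicate 3 it was 0.22 with an adjusted p of 0.0158.

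Over the whole family, 9 frizzled genes were in the table and 8 were tested. Of these, 5 were higher (16.1% of all tested genes were) and 1 was lower (26.7% were). Past 1.5-fold, 4 were higher and 1 was lower, beside 4.89% and 6.88% of all tested genes. Besides FZD1 and FZD7, the genes past 1.5-fold were FZD6, at a mean of 5.41 FPKM in GM and 8.97 FPKM in DM, FZD9, at 1.85 FPKM and 3.44 FPKM, and FZD3, which went down from 8.79 FPKM to 5.39 FPKM. FZD4 rose without reaching 1.5-fold. The summed level of the 9 genes was 58.0, 61.3 and 61.5 FPKM in GM and 101.8, 96.7 and 105.0 FPKM in DM, a ratio of the means of 1.68 (exact two-sided permutation test, p = 0.1). FZD1 alone made 28.8% ± 1.08 of that sum in GM and 46.2% ± 0.529 in DM (SD, n = 3). The share of FZD3 was 14.6% ± 1.33 in GM and 5.33% ± 0.146 in DM. FZD2 and FZD7 were level with each other in GM, with an FZD7 to FZD2 ratio of 1.01 ± 0.0780, and apart in DM, with a ratio of 1.64 ± 0.0632. FZD1, FZD2 and FZD7 together made 57.6% of the frizzled sum in GM and 71.9% in DM (exact permutation test, p = 0.1). The 3 did not gain alike. The share of FZD2 was lower in DM, at 14.3% ± 0.976 in GM and 9.72% ± 0.375 in DM. That of FZD7 was 14.4% ± 0.749 and 15.9% ± 0.0125.

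**Figure D2:**
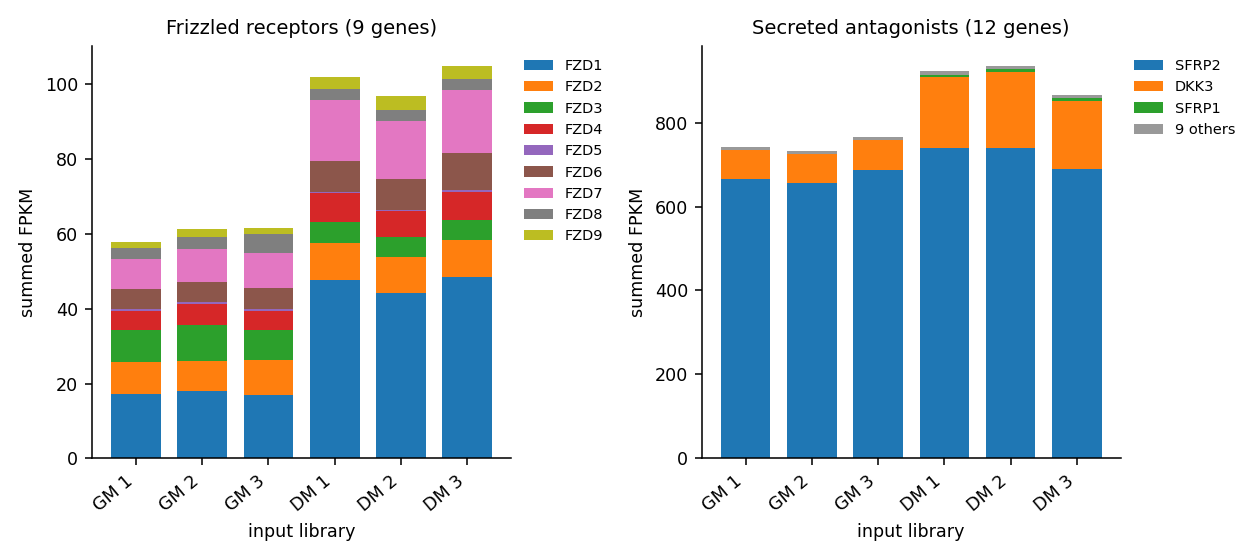
Summed FPKM of the 9 frizzled genes (left) and of 12 secreted antagonists (right) in each input library, as stacked bars from 0 with a colour per gene. The FZD1 block grows from 17.0 to 17.9 FPKM in GM to 44.2 to 48.6 FPKM in DM, and the DKK3 block from 68.1 to 72.2 FPKM to 161 to 181 FPKM, above an SFRP2 block that takes most of each bar.

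LRP6 (ENSBTAG00000011761, chromosome 5, 97526603 to 97700083, plus strand) encodes the single-span co-receptor that docks AXIN once a ligand is bound. It lay at 4.65, 4.42 and 4.42 FPKM in GM and at 5.05, 5.31 and 5.27 FPKM in DM. The groups were apart but close, with a ratio of the means of 1.16. The log2 fold change was 0.18 ± 0.06 (SE), with a 95% interval of 0.04 to 0.31 and a limma adjusted p of 0.0418. This call was lost when any 1 of the 6 libraries was left out, with adjusted p-values of 0.0684 to 0.109 in limma, and without the minimum level, at 0.0594. Among the 5 other listed co-receptors, 4 were tested and none passed 1.5-fold on the log2(FPKM + 1) scale, with ROR1 higher (a ratio of the mean FPKM of 1.58), ROR2 and PTK7 lower and RYK without a call.

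SFRP1 (ENSBTAG00000027625, chromosome 27, 36211720 to 36255293, minus strand) encodes a secreted protein that captures Wnt ligands. It lay at 0.717, 0.619 and 0.549 FPKM in GM and at 6.57, 6.96 and 6.44 FPKM in DM. It was scarce in every GM culture and clearly higher in every DM culture, with a ratio of the mean FPKM of 10.6. The log2 difference was 2.23 ± 0.07 (SE, limma adjusted p = 3.3e-07), and 21 tested genes had a larger one. The pseudocount holds the value of a gene this low down: with 0.1 in place of 1 the log2 fold change was 3.22. SFRP1 lay far below LRP6 in GM, at a ratio of 0.1395 ± 0.0150, and above it in DM, at 1.28 ± 0.0496 (SD, n = 3).

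DKK3 (ENSBTAG00000004275, chromosome 15, 40685311 to 40735279, plus strand) encodes the most divergent of the dickkopf proteins, whose action on the pathway is less settled than that of DKK1. It lay at 68.1, 69.3 and 72.2 FPKM in GM and at 169, 181 and 161 FPKM in DM. Every DM culture was more than 2 times above every GM culture. The log2 difference was 1.27 ± 0.06 (SE, limma adjusted p = 1.4e-06).

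SFRP2 (ENSBTAG00000018563, chromosome 17, 3834470 to 3843041, plus strand) encodes another frizzled-related protein and was by far the most abundant of the 10 genes. It lay at 666, 656 and 687 FPKM in GM and at 739, 740.0 and 690.3 FPKM in DM. The lowest DM culture was just above the highest GM culture. The log2 fold change was 0.11 ± 0.05 (SE), with a 95% interval of -0.01 to 0.23 and a limma adjusted p of 0.126. It passed the threshold on the TPM scale, at 0.24 and an adjusted p of 0.0058, and with size factors, at 0.17 and 0.0480.

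The sum of the secreted antagonists was carried by SFRP2 and DKK3. The summed level of the 12 secreted antagonists in the table was 747 ± 17.4 FPKM in GM and 908 ± 37.0 FPKM in DM (SD, n = 3), a ratio of 1.22 with no overlap of the libraries (exact two-sided permutation test, p = 0.1). SFRP2 made 89.7% ± 0.155 of it in GM and 79.6% ± 0.528 in DM. DKK3 made 9.36% ± 0.151 and 18.8% ± 0.483. SFRP1 stayed a minor part, with 0.0843% ± 0.0125 in GM and 0.733% ± 0.0178 in DM. Taken as 1 share, SFRP1, SFRP2 and DKK3 made 99.1% of the antagonist sum in both groups (exact permutation test, p = 0.8). Among the rest, SFRP4 rose from a mean of 1.97 FPKM to 5.11 FPKM and DKK2 fell from 4.22 FPKM to 1.93 FPKM, both past 1.5-fold. DKK1, SOST and WIF1, the best known antagonists outside this group, did not exceed 0.0977 FPKM in any library. The fibroblast marker FAP also rose, from 34.0 to 39.9 FPKM in GM to 93.6 to 112 FPKM in DM. Of the 11 fibroblast markers tested it was the only 1 to rise past 1.5-fold, and 5 made no call and 1 was lower. The myotube marker MYH3 rose as well, with a ratio of the means of 2.42 beside 2.44 for DKK3. The 8 myotube markers did not share this ratio, which ran from 0.635 for ACTA1 to 4.17 for CKM. Of the 8, 4 rose and 1 fell past 1.5-fold. The part of FAP or MYH3 in the result was not tested.

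CTNNB1 (ENSBTAG00000016420, chromosome 22, 13798884 to 13845848, plus strand) encodes β-catenin. It lay at 84.4, 90.0 and 87.1 FPKM in GM and at 151, 150.2 and 147 FPKM in DM. The cultures of each group were close together and the groups far apart, with a ratio of the means of 1.71 and a log2 fold change of 0.77 ± 0.05 (SE, limma adjusted p = 6.6e-06). This is a level of mRNA, and protein was not measured in these libraries. Of its TCF/LEF partners, TCF7L1 was lower, at a mean of 10.5 FPKM in GM and 7.67 FPKM in DM, and TCF7, TCF7L2 and LEF1 made no call. These partners were named after their values were seen.

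AXIN2 (ENSBTAG00000030162, chromosome 19, 62212833 to 62240091, minus strand) encodes a scaffold of the degradation complex and is itself switched on by β-catenin. It lay at 0.253, 0.311 and 0.433 FPKM in GM and at 0.481, 0.528 and 0.420 FPKM in DM. The groups overlapped, and the level was close to the bottom of the measured range in both. With no minimum level, the log2 fold change was 0.15 ± 0.06 (SE), with a limma adjusted p of 0.120. On the log2(FPKM + 1) scale a gene this low can show little change.

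The order of the 10 genes by mean FPKM was led by SFRP2 in both groups and closed by AXIN2. In GM it ran SFRP2, CTNNB1, DKK3, FZD1, WNT5A, FZD7, FZD2, LRP6, SFRP1, AXIN2. In DM it ran SFRP2, DKK3, CTNNB1, FZD1, FZD7, FZD2, WNT5A, SFRP1, LRP6, AXIN2. Neighbours overlapped in their libraries only for WNT5A with FZD7 and FZD7 with FZD2 in GM, and for FZD2 with WNT5A in DM. CTNNB1 was above DKK3 in all 3 GM cultures and below it in all 3 DM cultures, with a DKK3 to CTNNB1 ratio of 0.802 ± 0.02996 and 1.14 ± 0.0565 (SD, n = 3).

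The 10 genes were set beside a list of 104 pathway genes, of which 91 were in the table and 65 were tested. Of the 65, 23 were higher, 17 were lower and 25 made no call. On the log2(FPKM + 1) scale, 11 rose and 2 fell past 1.5-fold. These are 35.4% higher and 26.2% lower, beside 16.1% and 26.7% of all tested genes, and 16.9% and 3.08% past 1.5-fold, beside 4.89% and 6.88%. Without the 10 genes, 56 were tested, of which 17 were higher, 17 were lower and 22 made no call. The median log2 fold change was 0.77 over the 9 tested genes, 0.02 over the other 56 and -0.05 over all tested genes. The 10 genes and the list were chosen with earlier results of these data known, so these counts and medians are descriptions. Beyond the frizzled genes, the antagonists and CTNNB1, 3 listed genes rose past 1.5-fold. LGR5, a receptor for R-spondins, had a mean of 1.08 FPKM in GM and 8.65 FPKM in DM. NKD1, which binds Dishevelled and restrains the pathway, had 1.13 FPKM and 6.74 FPKM. PRICKLE2, of the planar polarity branch, had 1.06 FPKM and 3.45 FPKM. By the ratio of mean FPKM, the called genes TLE1 (1.75), TLE2 (1.51) and ROR1 (1.58) also rose past 1.5-fold. As GM over DM, DAAM2 (3.04), WNT9A (1.62) and WNT10B (1.51) fell by as much. The scaling bears on these counts: on the TPM scale the median log2 fold change of all tested genes rose by 0.11 to 0.06, and 23.1% of all genes were higher and 15.9% lower. On that scale AXIN2 also reached the minimum, and 8 of the 10 genes were higher and none was lower, WNT5A and AXIN2 making no call, and in the list 30 genes were higher and 16 were lower.

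**Figure D3:**
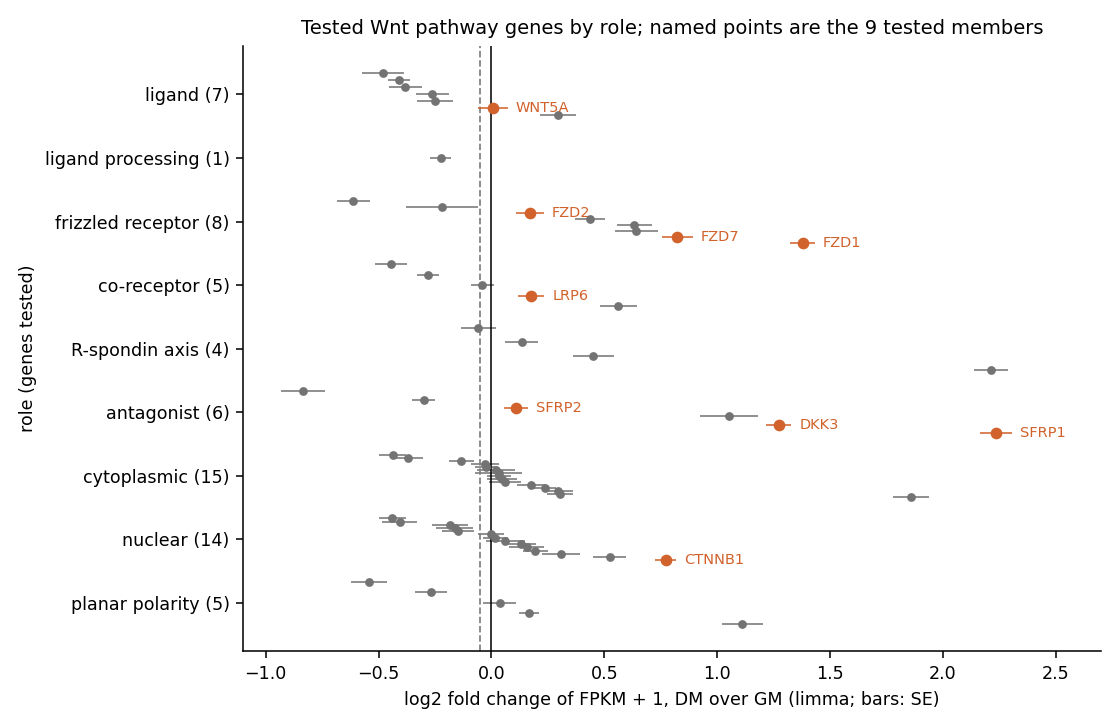
Log2 fold change of FPKM + 1, DM over GM, for the 65 tested Wnt pathway genes, 1 row per role, with bars for the SE of limma and a dashed line at the median of all 12302 tested genes. The 9 tested genes of the set are named in orange and lie between 0.01 for WNT5A and 2.23 for SFRP1, while the ligands lie mostly left of 0.

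Genes known as targets or feedback regulators of β-catenin did not move as one. Of 15 listed, 14 were in the table and 9 were tested, of which 3 were higher, 1 was lower and 5 made no call. These are 33.3% higher and 11.1% lower, beside 16.1% and 26.7% of all tested genes. The 3 that rose were LGR5 and NKD1, which are also in the pathway list, and BMP4, a growth factor, at a mean of 1.09 FPKM in GM and 2.82 FPKM in DM. The 1 that fell was CCND1, the cell cycle gene cyclin D1, from 31.6 FPKM to 21.3 FPKM, named after its value was seen. The others, among them AXIN2, were tested without a call or were below the minimum level.

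The m6A mark is a methyl group on adenosine in mRNA, found most often near stop codons and in 3′ untranslated regions (UTRs). The peaks used here had been called on the 3 cultures of a group together. Each peak thus has 1 value per group, a fold enrichment of immunoprecipitated over input reads, with no replicate error and no test. The lists held 19739 peaks in GM and 20790 in DM. Of these, 25 in GM and 21 in DM belonged to the Wnt genes. FZD1, FZD2, FZD7, LRP6, WNT5A, SFRP1, SFRP2 and AXIN2 had peaks in both lists, CTNNB1 in DM alone and DKK3 in neither.

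Peaks covered 39.7% of the FZD1 gene, 84.2% of FZD2 and 74.4% of FZD7 in GM, and 66.2%, 100% and 77.1% in DM. The FZD1 gene had 6 peaks in GM, with fold enrichments of 1.47 to 2.76, and 2 broad peaks in DM, of 2.62 over the 5′ part and 3.90 over the 3′ UTR. The GM peaks covered 1647 bases and the DM peaks 2749 bases of a gene of 4150 bases. FZD2 had 2 peaks in GM, of 2.93 and 3.08, and 1 in DM, of 2.57, which covered all 1883 bases of the gene. FZD7 had its strongest peak in the 3′ UTR, at 5.30 in GM and 6.89 in DM, beside a 5′ peak of 2.26 and 2.13. A further peak of 60 bases in FZD7, at 1.66, was called in GM alone.

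**Figure D4:**
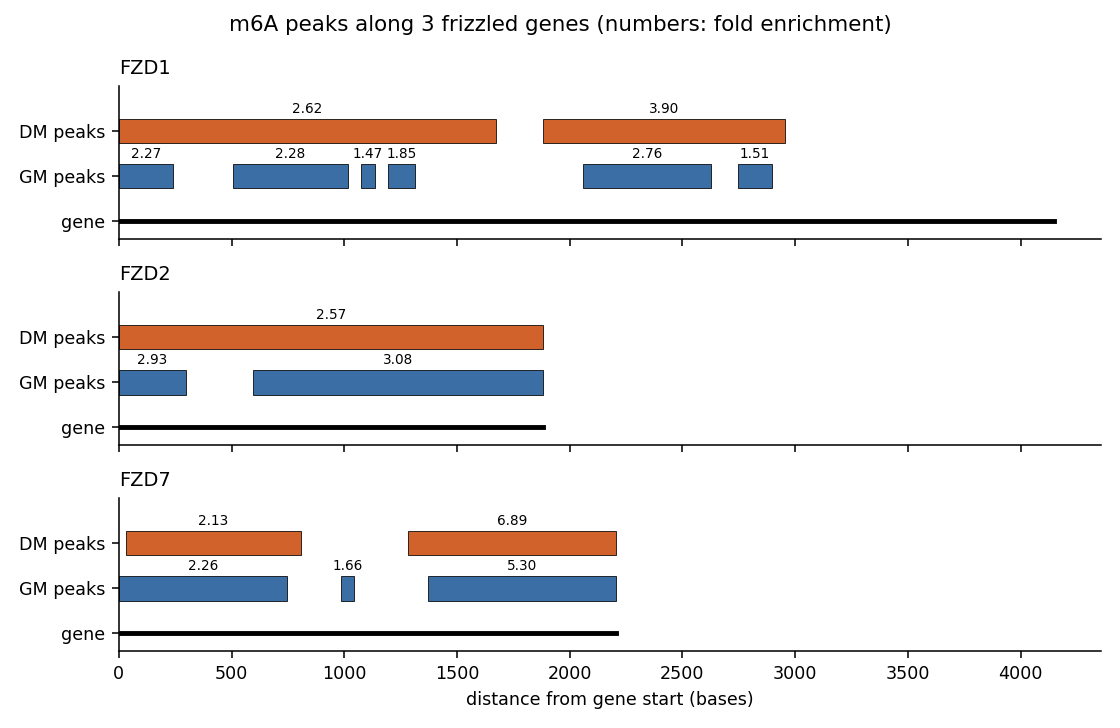
m6A peaks along FZD1, FZD2 and FZD7 by distance from the gene start in bases, with the gene as a black line, GM peaks in blue, DM peaks in orange and the fold enrichment written above each. The 6 GM peaks of FZD1 are met by 2 DM peaks, and the DM peak of FZD2 runs over the whole gene.

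For LRP6, 5 GM peaks of 1.48 to 4.89 were met by 3 DM peaks of 1.88 to 5.02, since the first 3 GM peaks overlapped 1 DM peak of 3.67. The peak over its last exons kept its height, at 4.89 in GM and 5.02 in DM. WNT5A had a 3′ UTR peak of 2.75 in GM and 3.09 in DM, and a 5′ exon peak of 2.20 in DM alone.

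SFRP2, the most abundant of the 10 mRNAs, had the lowest fold enrichment of their called peaks. Its 3′ UTR peak shared by both lists was 1.24 in GM and 1.14 in DM, and 0.917% and 0.584% of the peaks of the respective list were as low or lower. A second 3′ UTR peak, of 1.74, was called in DM alone. SFRP1 had 3 pairs of 3′ UTR peaks, of 2.18, 2.59 and 2.90 in GM and 1.90, 1.52 and 1.46 in DM. Its 5′ UTR peak of 6.53 was listed in GM alone, with a false discovery rate of 0.230, and its DM peak of 1.79, with no GM partner, had one of 0.0316. The GM peaks of SFRP1 rest on an mRNA that lay below 1 FPKM in that group.

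AXIN2 had the highest enrichments of the set and the lowest level. Its 3′ UTR peak was 16.3 in GM and 9.58 in DM, and 97.7% of the GM peaks and 90.8% of the DM peaks were as high or lower. A second 3′ UTR peak was 6.53 in GM and 2.88 in DM, and an exon peak was 4.72 and 2.88. A 5′ UTR peak of 11.7 was called in DM alone, with a false discovery rate of 0.0050. All these AXIN2 values are ratios over an input that did not exceed 0.528 FPKM in any library.

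CTNNB1 had a single peak, in the 3′ UTR at chromosome 22, 13844739 to 13845370, with a fold enrichment of 1.79 in DM and none in GM. Among the 986 genes with a mean of 50 to 250 FPKM, 12.8% likewise had peaks in DM alone. DKK3, at a similar level, had no peak in either list, as had 22.0% of those genes. A peak that was not called is below the caller's threshold, and the level of methylation there is not known.

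**Figure D5:**
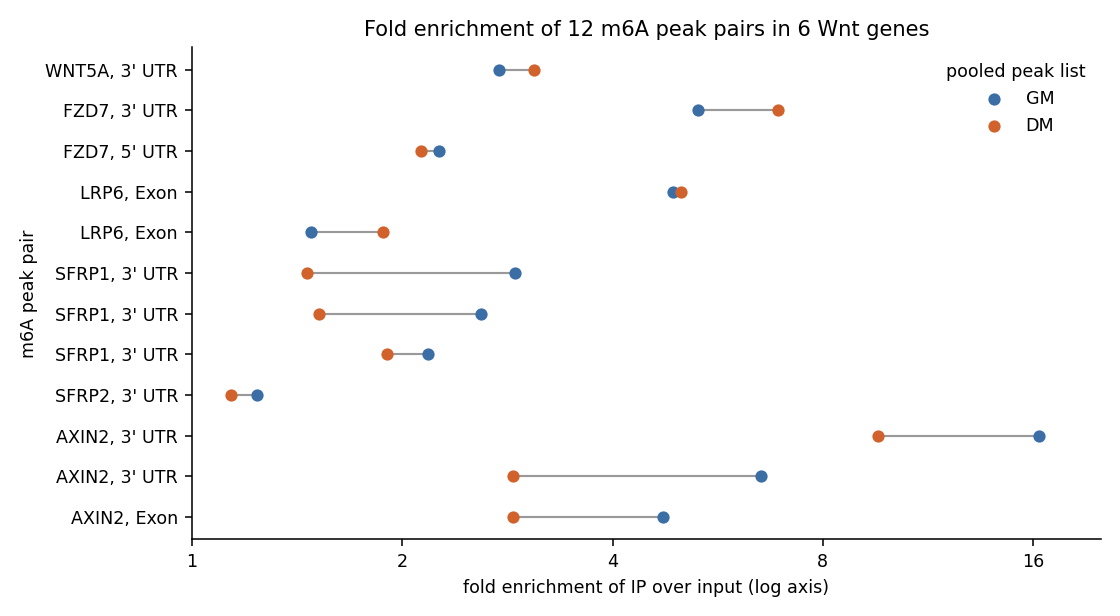
Fold enrichment (log axis) of the 12 one-to-one peak pairs in 6 of the Wnt genes, with blue for GM and orange for DM. The 3 AXIN2 pairs and 2 of the 3 SFRP1 pairs lie lower in DM by over 1.5-fold, and no pair lies higher by as much.

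Where exactly 1 GM peak met 1 DM peak, the fold enrichments could be set side by side. There were 12 such pairs in 6 of the genes. None was higher in DM by over 1.5-fold, beside 14.2% of the 10239 pairs of all genes. By the same measure 5 were lower, 3 in AXIN2 and 2 in SFRP1, beside 10.8% of all pairs. Both genes were scarce in GM, at 0.332 and 0.628 FPKM. With only peaks of a false discovery rate under 0.001, 7 pairs were left and 2 were lower, both in AXIN2. When 50% of both peaks had to overlap, the set of pairs changed, to 12 pairs in 8 genes, of which 3 were lower. An AXIN2 pair and an SFRP1 pair that had been lower were left out for too little overlap. The FZD1 3′ UTR peak was then paired and stood at 2.76 in GM and 3.90 in DM. Pairs of 1 gene share a transcript and are not replicates.

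Peaks covered more of these genes in DM. All 8 genes with peaks in both lists had more bases under peaks in DM, beside 72.6% of the 9840 genes of that kind. The DM over GM ratio of covered bases ran from 1.036 in FZD7 and 1.19 in FZD2 to 1.95 in WNT5A and 2.25 in SFRP2, and its median over all those genes was 1.21. Not every peak was longer: the pairs in the AXIN2 3′ UTR covered 450 and 210 bases in GM and 420 and 180 bases in DM, and that over the last exons of LRP6 covered 659 and 539 bases. In WNT5A, SFRP1, SFRP2 and AXIN2 the DM cover includes peaks called in DM alone. Set beside expression, the 5 genes that rose past 1.5-fold differed in their marks. FZD1, FZD7 and SFRP1 had peaks in both lists, CTNNB1 had a peak in DM alone, and DKK3 had none.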

How the data were processed

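The authors sequenced paired-end, strand-specific libraries of poly(A) RNA and of m6A-immunoprecipitated fragments. Their notes name cutadapt, fastp, HISAT2, StringTie, HOMER and ChIPseeker and the build ARS-UCD1.2. The authors deposited FPKM per gene for the 6 input libraries, and 1 peak list per group. In these lists the deposited fold enrichment is a ratio of immunoprecipitated over input reads, and the deposited log10 false discovery rate was used as a score. The peaks in these lists were called on pooled cultures, so replicates could not be compared in them. The paper also reports peaks for each sample, which were not analysed here.

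FPKM are not counts, so limma (version 3.58.1, R 4.3.3) was fitted to log2(FPKM + 1) with a variance trend, over genes whose mean reached 0.5 FPKM, with Benjamini-Hochberg adjustment over all of them. Sums and shares were compared with exact permutation tests (scipy 1.17.1). A peak pair was 1 GM and 1 DM peak on the same strand whose exon blocks shared at least 1 base and met no other peak. On simulated data with 200 of 12302 genes changed, 81% of the changes of 1.5-fold and 93% of those of 2-fold were recovered. The changes were made on the log2(FPKM + 1) scale and only in genes well above the minimum level. These rates therefore do not cover genes near that level. Groups came from the labels. The 10 genes, the gene lists and the tests were chosen with earlier results of these data known, so their counts are descriptions. The rule for names took the 10 genes, listed genes past both thresholds, and 5 markers (MYOG, CKM, PAX7, PDGFRA and THY1). Other listed genes and markers named in the text were chosen after their values were seen. Other pseudocounts, minimum levels, scalings, a replicate block, left-out libraries and stricter peaks were tried. The counting error of FPKM could not be computed without read counts per gene. The immunoprecipitated libraries entered only through the peak lists. Genes listed but not in the table were not analysed here.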

Additional observations from a re-analysis of the deposited data

How the results depend on the processing

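The 5 genes past 1.5-fold (SFRP1, FZD1, DKK3, FZD7 and CTNNB1) kept direction and call under every scaling, filter, pseudocount and left-out library tried. With a fold change over 2, 3 genes passed. Between 5 and 8 of the 10 genes were higher, and LRP6, FZD2 and SFRP2 made the difference. Leaving out single libraries turned the log2 fold change of WNT5A to between -0.036 and 0.049, with -0.018 without GM replicate 1, -0.0054 without GM replicate 3 and -0.036 without DM replicate 3, and moved the share of SFRP1, SFRP2 and DKK3 in DM minus GM to between -0.022 and 0.066 percentage points. With no minimum level, 2 target genes were lower in DM in place of 1, as more genes were tested. Of the peak pairs, 2 were lower with a false discovery rate under 0.001, 3 with a 50% overlap, and 1 with a ratio over 2. The first 2 of these settings also changed which pairs were compared.

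Cultures of the same number did not deviate together in expression, with correlations of -0.08, -0.12 and -0.21 for the 3 numbers. Such correlations cannot tell whether cultures of the same number were set up together, which the labels do not say. With a replicate block, 5 of the 9 genes were higher in place of 6, LRP6 having an adjusted p of 0.117 in limma, and 20 listed pathway genes were higher and 15 lower. The files hold no read counts per gene and no error for a peak, which limits what can be said of AXIN2 and of SFRP1 in GM.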
